A study of Mus musculus with 6 samples.

Results

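Intraflagellar transport (IFT) and BBSome genes encode the machinery that builds a cilium and moves membrane proteins in and out of it. A list of 33 mouse genes was followed here: the subunits of the IFT-B and IFT-A trains, the subunits of the BBSome with its chaperonin-like assembly factors and its GTPase, and the kinesins of anterograde transport. The list was set by function, and the symbols were matched to the Ensembl identifiers of the count files. All 33 of 33 were found, and all 33 had at least 1 CPM (a count scaled to the size of its library) in 3 or more libraries, as had 14723 of the 39179 genes in the files. The RNA came from the sensory epithelium of the inner ear of wild-type C57Bl/6J mice at postnatal day 0, dissected from 20 ears of 10 mice, with no treatment. Of the 6 libraries 3 were made from the cochlea, the hearing organ, and 3 from the vestibule, the balance organ. The sources do not say whether the 3 libraries of a tissue came from separate RNA pools, so the p-values measure the spread between these libraries, which may be technical.

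A cilium is assembled at its tip, and its parts travel there on trains of IFT-B and IFT-A complexes that walk along the microtubules below the membrane. Kinesins pull the trains outward and a dynein brings them back, with IFT-B tied mainly to the outward and IFT-A to the return journey. The BBSome is a coat-like complex that rides on the trains and takes receptors out of the cilium, and mutations in its genes cause Bardet-Biedl syndrome. In the ear each hair cell bears a true cilium, the kinocilium, at the edge of its actin-based bundle. Mature cochlear hair cells lose it, while vestibular hair cells keep it. Supporting cells and most of the other cells of a dissected epithelium carry primary cilia, so that these genes are used by nearly every cell in such a sample.

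The counts on genes ranged from 24464483 to 33664793 per library, so that 1 CPM before TMM scaling stands for 24.5 to 33.7 counts. The 10 markers of hair cells were present in every library, with a summed level of 681 to 806 CPM in the cochlea and 790 to 811 CPM in the vestibule. Myo6 alone gave 318 to 466.5 CPM of these sums. Single markers differed in both directions. In the test described below 4 of the 10 were higher in the vestibule and 1, Calb2, in the cochlea. Supporting cell markers summed to 1638 to 1849 CPM in the cochlea and 813 to 855 CPM in the vestibule. Markers of tissue outside the epithelium were measured as well and differed between the organs, among them those of mesenchyme (5338 to 6062 against 7630 to 8717 CPM), endothelium (60.9 to 89.9 against 313 to 434 CPM), macrophages (54.0 to 62.4 against 191 to 223 CPM), Schwann cells (389 to 566 against 662 to 1045 CPM) and melanocytes (30.7 to 64.7 against 226 to 284 CPM). Neuronal markers summed to 163 to 528 CPM in the cochlea and 99.1 to 294 CPM in the vestibule. Cochlear library 3 stood apart in skeletal muscle markers, at 242 CPM against 3.05 and 6.56 CPM in the other cochlear libraries. It was also lower than these in neuronal markers (163 against 528 and 499.5 CPM) and melanocyte markers (30.7 against 59.0 and 64.7 CPM). The part of these cells in the results below was not tested, and in bulk RNA fewer cells of a type cannot be told apart from less RNA per cell.

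The comparison of the organs asks whether the transport machinery as a whole, or single parts of it, stands at another level in the balance organ than in the hearing organ. The members differed little. Ift74, Ift20, Bbs2 and Bbs5 were higher in the vestibule at a false discovery rate (FDR) of 0.05, and no member was higher in the cochlea. The quasi-likelihood test of edgeR was fitted on all 14723 genes for this purpose, with adjustment over all of them, and fold changes are given as vestibule over cochlea. These 4 members are 12.1% of the list, and among all genes tested 27.3% were called in either direction, 15.7% higher in the vestibule and 11.6% higher in the cochlea. At an unadjusted p under 0.05 there were 6 members (18.2%), the 4 named with Ift81 and Kif17, against 38.6% of all genes. None of these 6 lay on the cochlear side, and DESeq2 and limma-voom called the same 4 members in the vestibule and 0 in the cochlea. No member changed by a log2 fold change of 1 or more in size, which 16.6% of all genes did.

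The values of the members were nevertheless mostly on the vestibular side. A positive log2 fold change was measured for 25 of the 33 members (75.8%), against 50.5% of all genes, and the median of the members was 0.17 where that of all genes was 0.00. Without cochlear library 3, which stood apart in skeletal muscle, neuronal and melanocyte markers, the median of the members was 0.28 and that of all genes 0.02. In 8 members (24.2%) the 3 vestibular libraries all lay above the 3 cochlear ones, a separation seen in 22.3% of all genes, and in 0 members did the 3 cochlear libraries lie above, against 19.5% of all genes. The share that separated toward the vestibule was thus close to that of other genes. The members were also tightly spread, with an SD of their log2 fold changes of 0.263 against 1.001 for all genes. For 30 of the 33 the 95% interval lay within a 2-fold change in either direction (90.9%, against 65.6% of all genes), the exceptions being Ift74, Bbs5 and Kif17, so for the other 30 a change of 2-fold or more lay outside the interval.

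**Figure D1:**
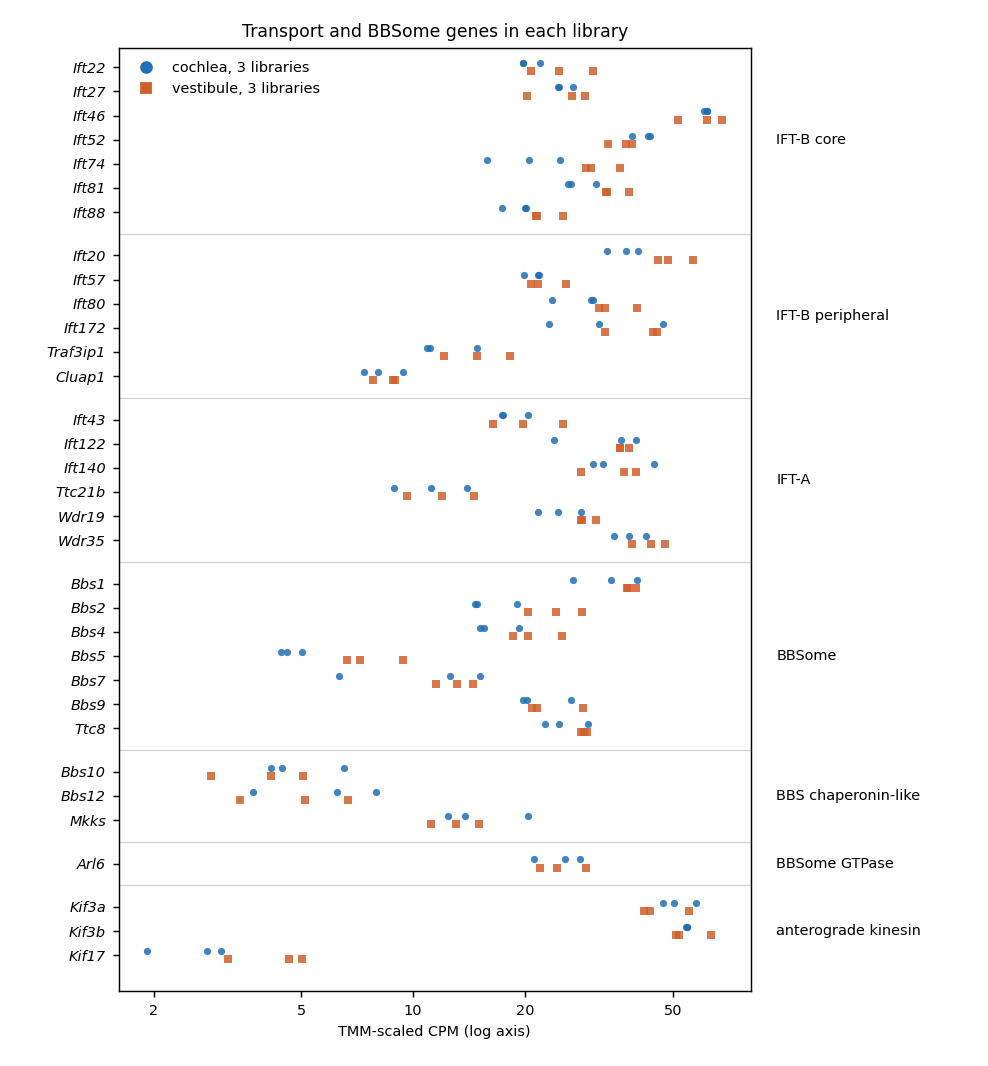
TMM-scaled CPM (log axis) of the 33 members in each library, with blue circles for the 3 cochlear and orange squares for the 3 vestibular libraries, grouped by role. Circles and squares are apart in Ift74, Ift81, Ift88, Ift20, Ift80, Bbs2, Bbs5 and Kif17, always with the vestibule on the right, and overlap in the other 25.

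The IFT-B core holds the anterograde train together, and 1 of its 7 members passed the test. Ift74, a coiled-coil subunit that with Ift81 forms the part of the train that binds tubulin (chr4:94614491-94693229, plus strand, GRCm38), measured 24.8, 20.5 and 15.8 CPM in cochlear libraries 1, 2 and 3 and 36.1, 30.1 and 29.3 CPM in vestibular libraries 1, 2 and 3. All 3 vestibular values lay above all 3 cochlear ones, and the cochlear libraries differed among themselves, with library 3 the lowest. The means were 20.4 ± 4.51 CPM (SD, n = 3) and 31.9 ± 3.74 CPM (SD, n = 3), a fold change of 1.56 (95% interval 1.17 to 2.09), or 0.65 on the log2 scale (SE 0.19, adjusted p = 0.031). This call was lost without cochlear library 2 or 3 or vestibular library 1 or 2, where the adjusted p was 0.057 to 0.098, while the log2 fold change stayed between 0.49 and 0.81 in all 6 fits with a library left out. Ift81, its partner, measured 26.6, 26.1 and 31.0 CPM in the cochlea and 38.1, 33.2 and 33.04 CPM in the vestibule. Its libraries did not overlap either, with a fold change of 1.25 (95% interval 1.005 to 1.55), and it did not pass the test (adjusted p = 0.12). Ift88, a scaffold subunit whose loss abolishes cilia, gave 17.4 to 20.1 CPM in the cochlea and 21.4 to 25.4 CPM in the vestibule, at 1.19-fold (0.950 to 1.49). Here too the libraries were apart, but the gap between the nearest of them was small and the adjusted p was 0.23.

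The remaining core subunits overlapped between the organs. Ift22, a Rab-like small GTPase, ranged from 19.7 to 21.9 CPM in the cochlea and from 20.7 to 30.4 CPM in the vestibule (1.23-fold, 95% interval 0.949 to 1.60). Ift27, the other small GTPase of the train, which takes part in the exit of the BBSome from the cilium, was 24.6 to 27.0 and 20.2 to 29.0 CPM (0.997-fold, 0.772 to 1.29). The cochlear values of Ift27 were thus contained in the vestibular range. Ift46, known for carrying outer dynein arms, was the core subunit with the most counts, at 60.7 to 62.0 CPM in the cochlea and 51.7 to 67.9 CPM in the vestibule (0.985-fold, 0.797 to 1.22). Ift52, another scaffold subunit, was the core member with the lowest fold change, at 38.8 to 43.5 against 33.4 to 38.8 CPM, and it did not pass the test (0.877-fold, 0.719 to 1.07, adjusted p = 0.31). The median log2 fold change of the 7 core members was 0.25, and 4 of the 7 were positive. With only library sizes for scaling 6 of 7 were positive, but the median of all genes then rose as well, to 0.13.

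In the IFT-B peripheral group 1 of 6 members passed, and all 6 log2 fold changes were positive, with a median of 0.28. Ift20 (chr11:78536361-78541737, plus strand), a small subunit that is also found at the Golgi apparatus and sorts membrane cargo for the cilium, measured 40.4, 37.5 and 33.2 CPM in the cochlea and 45.7, 48.5 and 56.5 CPM in the vestibule. Each vestibular library was above each cochlear one. The means were 37.0 ± 3.60 and 50.3 ± 5.60 CPM (SD, n = 3 each), a fold change of 1.36 (95% interval 1.09 to 1.69) and a log2 fold change of 0.44 (SE 0.14, adjusted p = 0.045). This was the member nearest to the threshold among those called. The call was lost whichever of the 6 libraries was left out, with an adjusted p of 0.050 to 0.11. It was also lost with RLE scaling (adjusted p = 0.054), no filter on low counts (adjusted p = 0.071) or a block that pairs same-numbered libraries (adjusted p = 0.16). The log2 fold change stayed between 0.36 and 0.56 in every fit.

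The other 5 peripheral subunits did not pass. Ift80, a subunit with roles in Hedgehog signalling and bone growth, was 23.6 to 30.5 CPM in the cochlea and 31.6 to 40.1 CPM in the vestibule, again with no overlap (1.24-fold, 95% interval 0.967 to 1.59, adjusted p = 0.18). Ift57, which binds Ift20, was 19.9 to 21.8 and 20.7 to 25.8 CPM (1.08-fold, 0.858 to 1.35). Ift172, the large subunit that acts where trains turn at the tip, varied most between replicates, with 23.2, 31.7 and 47.2 CPM in cochlear libraries 1, 2 and 3 and 45.4, 44.1 and 32.9 CPM in vestibular libraries 1, 2 and 3. Its cochlear values differed by more than its means did (1.20-fold, 0.799 to 1.80). Traf3ip1, a microtubule-binding subunit, gave 10.9 to 14.9 and 12.1 to 18.3 CPM (1.23-fold, 0.889 to 1.69). Cluap1, which is needed early in cilium formation, gave 7.35 to 9.41 and 7.82 to 8.91 CPM (1.03-fold, 0.780 to 1.37). Of the exon bases of Cluap1, 22.4% are shared with another gene model on its strand and 18.4% with models on the other strand, and 7.86% of those of Ift57 lie opposite an antisense gene. The strand setting of the counting is not given in the sources used here, so these values are uncertain.

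None of the 6 IFT-A genes, whose products drive retrograde transport and the entry of membrane receptors, passed the test. Their log2 fold changes ran from -0.03 to 0.24, with a median of 0.15 and 5 of 6 positive. With library sizes alone 6 of 6 were positive, where the median of all genes was 0.13. Wdr19 came nearest, at 21.7 to 28.4 CPM in the cochlea and 28.3 to 31.2 CPM in the vestibule (1.18-fold, 95% interval 0.939 to 1.48, adjusted p = 0.26), where the lowest vestibular library lay just below the highest cochlear one. Wdr35 was 34.8 to 42.5 and 38.9 to 47.6 CPM (1.13-fold, 0.909 to 1.40). Ift43, the smallest subunit, was 17.3 to 20.3 and 16.5 to 25.4 CPM (1.12-fold, 0.838 to 1.49). These 3 genes overlapped between the organs by 1 or more libraries. Ift122, a subunit with a part in Hedgehog signalling, was set apart by a single library, with 24.0 CPM in cochlear library 1 against 36.3 and 39.8 CPM in the other cochlear and 36.0 to 38.2 CPM in the vestibular libraries (1.10-fold, 0.820 to 1.48). Without that library its log2 fold change turned from 0.14 to -0.06. Ift140 was highest in cochlear library 3, at 44.4 CPM, and lowest in vestibular library 3, at 28.4 CPM (0.982-fold, 0.729 to 1.32). Ttc21b, a subunit at the side of the train, was 8.90 to 14.0 and 9.60 to 14.6 CPM (1.06-fold, 0.749 to 1.52).

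The BBSome gave the other 2 calls among its 7 members, and all 7 log2 fold changes were positive, with a median of 0.21 (0.30 with limma-voom). Bbs2 (chr8:94067954-94098928, minus strand), a subunit with a beta-propeller fold, measured 14.8, 14.7 and 19.0 CPM in the cochlea and 28.5, 24.2 and 20.4 CPM in the vestibule. The organs did not overlap, though cochlear library 3 and vestibular library 3 were close to each other. The means were 16.2 ± 2.44 and 24.4 ± 4.02 CPM (SD, n = 3 each), a fold change of 1.51 (95% interval 1.14 to 1.99) and a log2 fold change of 0.59 (SE 0.18, adjusted p = 0.036). Bbs5 (chr2:69647171-69667571, plus strand), the subunit that binds phosphoinositide lipids of the membrane, measured 5.02, 4.41 and 4.57 CPM in the cochlea and 9.40, 7.21 and 6.62 CPM in the vestibule. Its cochlear libraries were close together and its vestibular ones all higher, led by library 1. The means were 4.67 ± 0.315 and 7.74 ± 1.46 CPM (SD, n = 3 each), and its log2 fold change of 0.73 (SE 0.20, adjusted p = 0.027) was the largest of the list, at 1.66-fold (95% interval 1.21 to 2.29). The counts behind Bbs5 were few for this list, with 117 to 131 read pairs per cochlear and 167 to 344 per vestibular library. Both calls were lost without cochlear library 1 or 2 or vestibular library 1 or 2, where the adjusted p was 0.055 to 0.13. They were also lost with a block that pairs same-numbered libraries (adjusted p = 0.12 for Bbs2 and 0.072 for Bbs5). In these fits the log2 fold change stayed at 0.48 or more for Bbs2 and at 0.59 or more for Bbs5.

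The other BBSome subunits lay on the same side in value without passing. Bbs4, a subunit of TPR repeats that also works at centriolar satellites, gave 15.1 to 19.2 CPM in the cochlea and 18.6 to 25.1 CPM in the vestibule (1.28-fold, 95% interval 0.982 to 1.68, adjusted p = 0.15). Bbs1, which meets the GTPase Arl6 at the membrane, gave 27.0 to 40.1 and 37.7 to 39.8 CPM (1.14-fold, 0.886 to 1.46). Ttc8 gave 22.6 to 29.6 and 28.2 to 29.5 CPM (1.12-fold, 0.898 to 1.41). In all 3 the highest cochlear library lay above the lowest vestibular one. Bbs9 gave 19.7 to 26.6 and 20.9 to 28.6 CPM (1.07-fold, 0.802 to 1.42). Bbs7, the partner of Bbs2 in the core of the complex, was uneven in the cochlea, with 12.6, 6.30 and 15.1 CPM, and steady in the vestibule, at 11.5 to 14.5 CPM (1.15-fold, 0.726 to 1.83). Without cochlear library 2 the log2 fold change of Bbs7 turned from 0.21 to -0.09, and without vestibular library 3 that of Bbs9 turned from 0.09 to -0.05.

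The 3 chaperonin-like genes, whose products fold and assemble the BBSome, had log2 fold changes of the opposite sign, from -0.32 to -0.23, and none passed the test. Bbs10 measured 6.52, 4.15 and 4.43 CPM in the cochlea and 5.06, 4.14 and 2.86 CPM in the vestibule (0.803-fold, 95% interval 0.518 to 1.24, adjusted p = 0.44). Bbs12 measured 7.95, 3.69 and 6.24 CPM and 6.70, 5.10 and 3.41 CPM (0.855-fold, 0.508 to 1.44, adjusted p = 0.65). Mkks measured 20.4, 13.8 and 12.4 CPM and 11.2, 13.0 and 15.0 CPM (0.841-fold, 0.597 to 1.19, adjusted p = 0.44). Cochlear library 1 was the highest of the 6 libraries in all 3 genes and the organs overlapped in each. The median of the group was -0.25, without cochlear library 1 it was -0.010 and without vestibular library 3 it was -0.11. In the same fits Bbs12 turned positive, at 0.03 and 0.01. Mkks shares 29.2% of its exon bases with other gene models on its strand, so that its value is uncertain. Arl6, the small GTPase that recruits the BBSome to membranes, was level in value, with 21.2 to 28.1 CPM in the cochlea and 22.0 to 29.2 CPM in the vestibule (1.01-fold, 0.778 to 1.31).

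The kinesins that pull the trains outward divided into 2 abundant subunits and a scarce motor. Kif3a and Kif3b, which pair in the heterotrimeric kinesin-2, gave 47.1 to 57.8 and 54.3 to 54.6 CPM in the cochlea and 41.8 to 55.3 and 51.1 to 63.4 CPM in the vestibule. The organs overlapped for both, with fold changes of 0.905 (95% interval 0.712 to 1.15) for Kif3a and 1.02 (0.830 to 1.25) for Kif3b. Kif17 (chr4:138250435-138301967, plus strand), the homodimeric kinesin-2 that carries receptors and channels into cilia and dendrites, measured 1.92, 2.79 and 3.03 CPM in the cochlea and 5.03, 4.62 and 3.17 CPM in the vestibule. The organs did not overlap, with cochlear library 3 and vestibular library 3 nearly level. Its log2 fold change of 0.73 (SE 0.27) matched that of Bbs5 in size, at 1.66-fold (95% interval 1.08 to 2.53), and did not pass at an FDR of 0.05 (adjusted p = 0.078). It passed without vestibular library 3 (adjusted p = 0.041), and under the further criterion that the study applies, a fold change of 1.3 at an FDR of 0.1.

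**Figure D2:**
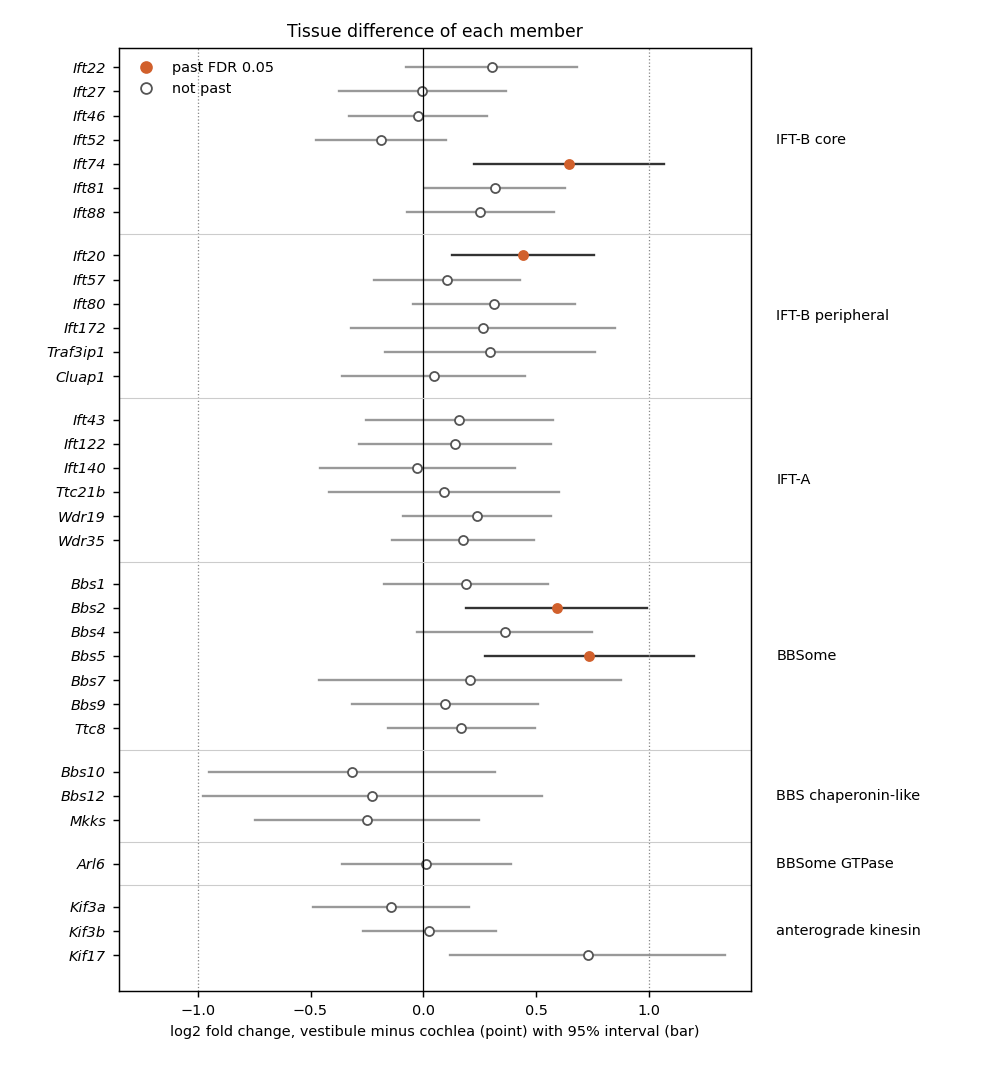
Log2 fold change of each member (x axis, vestibule minus cochlea), with its 95% interval as a bar, grouped by role; filled points passed an FDR of 0.05 and dotted lines mark a 2-fold change. Ift74, Ift20, Bbs2 and Bbs5 are filled, between 0.44 and 0.73, and the points of the 3 chaperonin-like genes lie on the cochlear side, at -0.32 to -0.23, with intervals that span 0.

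How far the 4 calls and Kif17 depend on the libraries and on the method was read from the alternatives. The number of members called in the vestibule was 4 with DESeq2, limma-voom, the exact test of edgeR, upper quartile scaling, library sizes alone and a minimum of 5 CPM, and 3 with RLE scaling or no filter. With a replicate block, which takes same-numbered libraries as pairs, it was 1, Ift74. With a library left out it was 1 without cochlear library 1, 0 without cochlear library 2, 2 without cochlear library 3, 0 without vestibular library 1 or 2, and 4 without vestibular library 3. The 4 of the last fit included Kif17 in place of Ift20. Over all genes the number higher in the vestibule was 1350 without vestibular library 2 and 2681 without cochlear library 3, against 2318 with all 6 libraries. The log2 fold changes of the 5 genes stayed positive in each of these fits that tested them, and the minimum of 5 CPM left out Kif17.

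**Figure D3:**
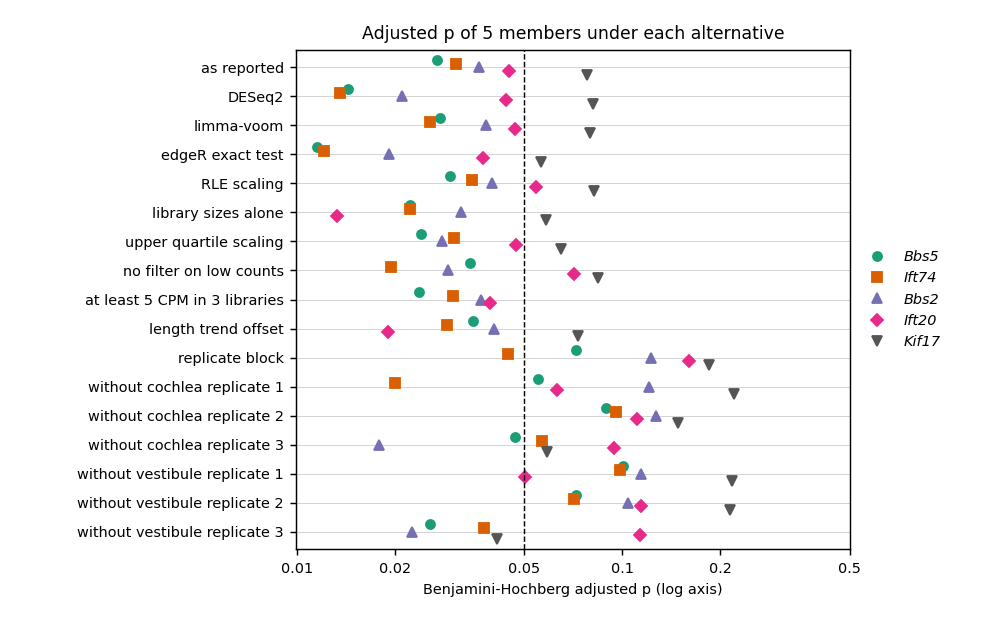
Benjamini-Hochberg adjusted p (log axis) of Bbs5, Ift74, Bbs2, Ift20 and Kif17 in the reported fit and under each alternative, with the dashed line at 0.05. Other tests, scalings and filters leave Bbs5, Ift74 and Bbs2 left of the line, and the replicate block and the fits that leave out a library move points across it.

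Per unit of gene length the members covered a wide range of levels. On the scale of log2 RPKM (counts scaled to gene length and library size, as the authors deposited it), the mean over the 6 libraries ran from -0.48 for Kif17 to 4.82 for Ift20, with a median of 2.63, close to the median of 2.65 over all genes tested. The small subunits led, with Ift20 followed by Ift27 and Ift43 (both 4.64) and Ift22 (4.63). In RPKM, Ift20 was at 23.3 in the cochlea and 34.3 in the vestibule, Ift22 at 21.6 and 28.6, Ift27 at 24.1 and 25.9, and Ift43 at 22.7 and 27.2. Next in the order came Ift52, at 14.3 and 13.6, Kif3a, at 13.8 and 13.5, and Arl6, at 11.4 and 12.5. The lowest after Kif17 (0.534 and 0.958) were Ttc21b (1.16 and 1.34) and Bbs10 (1.72 and 1.49). Among the BBSome subunits Ttc8 was the highest, at 8.91 in the cochlea and 10.9 in the vestibule, and Bbs5 the lowest in the cochlea, at 1.83 against 3.28 in the vestibule. RPKM here is scaled by library size without TMM, so its vestibular values stand higher relative to the cochlear ones than the TMM-scaled CPM do. The order of neighbours such as Ift27, Ift43 and Ift22 differs by less than their spread between libraries, whose SD was 0.08 to 0.24 on the log2 scale. With exon lengths of GENCODE in place of the authors' lengths the median log2 RPKM of the members was 2.17 instead of 2.43 in the cochlea and 2.38 instead of 2.85 in the vestibule, so levels between genes depend on the gene model.

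Promoter sequences were searched because RFX factors, which are known to drive many genes of the cilium, bind a paired element, the X-box. It was written as GTTNCC, then 0 to 3 letters, then GGNAAC, which reads the same on both strands. RefSeq windows of 300 bases around the start sites (GRCm38.p6, 250 bases before to 50 after) were found for 30 members, 2 of them for Arl6, and not for Ift80, Ift81 and Ift122. The whole element occurred in 2 of the 31 windows (6.45%), those of Bbs7 and Ift57, against 0.804% of the 32851 windows of all genes and 0.848% of the 14384 windows of genes tested here. With 1 mismatch allowed it occurred in 7 of 31 (22.6%), against 5.44% and 6.29%. A single GTTNCC or GGNAAC occurred in 23 of 31 (74.2%), against 45.3% and 46.3%. The shares are descriptions of these windows, and a match is not a site of binding. A sequence with the whole element, that of Bbs7, is shown first, then those of Kif17 and Ift22, with 1 mismatch, and that of Ift74, a called member with a single element; each is 5′ to 3′ along its gene, with the matched bases in capitals.
Bbs7, chr3:36613478-36613535, minus strand: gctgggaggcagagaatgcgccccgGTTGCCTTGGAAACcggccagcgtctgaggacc
Kif17, chr4:138262153-138262215, plus strand: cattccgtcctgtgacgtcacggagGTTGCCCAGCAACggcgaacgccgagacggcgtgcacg
Ift22, chr5:136908062-136908125, plus strand: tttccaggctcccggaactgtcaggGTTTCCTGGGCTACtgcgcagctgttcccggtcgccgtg
Ift74, chr4:94614256-94614311, plus strand: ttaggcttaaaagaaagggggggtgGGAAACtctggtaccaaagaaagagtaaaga

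Counted from the RefSeq start site, the first base of the match lay at -121 in Bbs7, -73 in Kif17, -63 in Ift22 and -210 in Ift74. Bbs7 and Ift57 were not called, and Bbs2 had no match of either kind in its window; whether the element goes with the calls was not tested. Bbs5 had a single element only after its start site. The windows of Arl6, Bbs12, Bbs2, Bbs9, Cluap1, Ttc8 and Wdr19 held none of these letters.

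Other genes of the cilium give the members their surroundings. Of 18 further partners of the IFT trains and the BBSome, such as dynein-2 subunits, 17 were tested, and 1 was higher in the vestibule and 2 in the cochlea, with a median log2 fold change of -0.01. With a library left out, 0 were called in the vestibule without cochlear library 1 or 2 or vestibular library 2 or 3, and in the cochlea 1 was called without cochlear library 1 or 2 or vestibular library 3 and 0 without vestibular library 2. Rabl2, a GTPase that lets trains enter the cilium, was higher in the vestibule by 0.63 on the log2 scale (SE 0.17, adjusted p = 0.024). Kif3c, an alternative subunit of kinesin-2, had a log2 fold change of -0.56 (SE 0.14, adjusted p = 0.020), and Ttc30a1, an IFT-B subunit with near-identical paralogs whose reads cannot be told apart with certainty, one of -0.74 (SE 0.17, adjusted p = 0.010). Of 20 transition zone genes, which gate the base of the cilium, 18 had a positive log2 fold change, with a median of 0.19.

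Of 10 ciliogenic transcription factors 6 were tested and 2 were higher in the vestibule, with a median log2 fold change of 0.14. Without cochlear library 1 or 2 or vestibular library 1 or 2 only 1 was called, and without cochlear library 3 there were 3. Foxj1, the master factor of motile cilia, measured 15.6, 18.3 and 18.9 CPM in the cochlea and 48.4, 51.1 and 59.4 CPM in the vestibule (log2 fold change 1.59, SE 0.15, adjusted p = 7.1e-05), so that its organs were far apart. Rfx2 measured 4.73, 6.49 and 9.63 CPM and 12.5, 14.7 and 10.5 CPM (0.85, SE 0.27, adjusted p = 0.044). Rfx3, which is tied to primary cilia as well, did not pass (0.19, adjusted p = 0.73), and Mcidas and Gmnc, the switches of multiciliated cells, had at most 0.042 CPM in any library. Of 12 genes of the motile axoneme 10 were matched and 9 tested, and 8 were higher in the vestibule and 0 in the cochlea. Dnah5 and Dnah11 lay below 1 CPM in the 3 cochlear libraries and so passed the filter through the 3 vestibular libraries alone, which fixed their direction. Of the other 7 tested, 6 were higher in the vestibule. Among these, Dnah9 measured 0.627, 0.905 and 1.60 CPM in the cochlear libraries, so it also needed vestibular libraries to pass the filter. Without vestibular library 1 or 2, when Dnah5 and Dnah11 no longer passed the filter, 5 of the 7 genes then tested were higher in the vestibule, and again 0 in the cochlea. Dnah5, an outer arm dynein, measured 0.0836 to 0.226 CPM in the cochlea and 12.9 to 19.9 CPM in the vestibule (log2 fold change 6.67), and Dnah11 and Dnah9 had log2 fold changes of 4.94 and 3.96. The difference between this list and the members was not tested.

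Summed over the 33 members, the level was 784, 790 and 857 CPM in the cochlear libraries and 907, 885 and 902 CPM in the vestibular ones, so that the organs did not overlap. On the log2 scale the median member lay -0.11, -0.13 and -0.03 from its own mean in cochlear libraries 1, 2 and 3 and 0.18, 0.08 and 0.08 from it in vestibular libraries 1, 2 and 3. The summed level of hair cell markers overlapped between the organs, and 4 of its 10 genes were higher in the vestibule and 1 in the cochlea. Supporting cell markers were lower in the vestibule in 7 of 10 and higher in 1. Markers of endothelium (4 of 4), macrophages (5 of 5) and melanocytes (4 of 4) were higher in the vestibule, as were 4 of 9 of mesenchyme, with 2 lower, and 2 of 6 of Schwann cells. Of 7 neuronal markers 2 were higher in the cochlea and 0 in the vestibule, and of 7 cartilage markers tested 3 were higher in the vestibule and 1 in the cochlea, with summed levels of 11650 to 19740 and 13710 to 16140 CPM that overlapped. Genes of dissection stress summed to 209 CPM in vestibular library 3 and to 122 to 137 CPM in the other 5 libraries. Of 6 of them tested, 1 was higher in the vestibule and 1 in the cochlea. No marker of red blood cells, proliferation or skeletal muscle was called by edgeR (0 of 4, 0 of 7 and 0 of 3 tested, with 0 at an unadjusted p under 0.05). Among the marker genes counted here, Mlana of melanocytes and Comp of cartilage lay below 1 CPM in the 3 cochlear libraries. Hes5 of supporting cells lay below 1 CPM in the 3 vestibular ones. These genes passed the filter through the other organ alone, which fixed their direction. The part of the marked cell types in the member values was not tested.

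Gene length moved with the differences between replicates, for the members mainly in the cochlea and for all genes in both organs. Across the 33 members the log2 ratio of cochlear library 1 over library 3 had a Spearman correlation of -0.64 with the exon length of the gene, against -0.30 over all genes. Members with shorter exons thus tended to be higher in cochlear library 1 and those with longer ones in library 3, with exceptions such as Ttc21b, a long gene at 14.0 against 11.2 CPM. For cochlear library 1 over 2 the correlation was -0.47 (all genes -0.09) and for library 2 over 3 it was -0.31 (all genes -0.24). In the vestibule the correlation for library 1 over 3 was 0.14 for the members and 0.46 for all genes. For vestibular library 1 over 2 it was 0.12 (all genes 0.43) and for library 2 over 3 it was 0.12 (all genes 0.285). Between the organs, on the means of 3 libraries, it was 0.10 for the members and 0.01 for all genes. These are correlations across genes that share the same libraries, and genes are not independent replicates. With an offset for the trend in length, an alternative chosen after seeing the data, the same number of members was called, 4 in the vestibule and 0 in the cochlea.

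**Figure D4:**
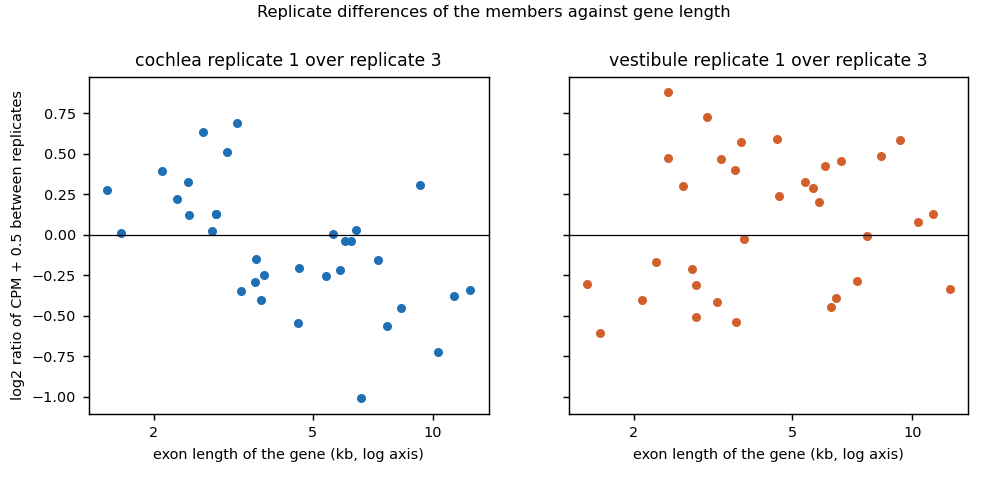
Log2 ratio of CPM between replicates of the same organ (y axis) against the exon length of the gene in kilobases (log x axis), 1 point per member, for cochlear library 1 over 3 on the left and vestibular library 1 over 3 on the right. On the left the points fall with length (Spearman -0.64), and on the right they show no clear slope (0.14).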

How the data were processed

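Total RNA of cochlear and vestibular sensory epithelium was sequenced in 3 libraries per tissue, from 450 ng of RNA each, with a stranded mRNA kit and paired reads of 100 bases. The authors used TopHat2 2.1.0 with the GRCm38 genome for alignment, and the counts they deposited are unnormalized numbers of read pairs on Ensembl genes, made with HTSeq 0.5.4p5. Per the labels SAMtools 0.1.18 and edgeR 3.4.2 were used too, and the strand setting is not given in the sources used here. The authors also deposited a matrix of log2 RPKM, used here only for levels between genes. In each count file 5 summary lines, 18.5% to 20.6% of the listed counts, stayed out of library sizes and tests.

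Genes reaching 1 CPM in no fewer than 3 libraries entered the test of edgeR 4.0.16 under R 4.3.3 (robust quasi-likelihood test, TMM scaling, Benjamini-Hochberg adjustment over all 14723 genes, FDR 0.05), after the script was tested on simulated data. Intervals are those of the fitted log2 fold change at 95%. CPM values are scaled by TMM. The common biological coefficient of variation was 0.195, which with 3 libraries per tissue sets the precision. Alternatives were DESeq2 1.42.0, limma-voom (limma 3.58.1), other scalings and filters, a replicate block and leaving out each library. Groups follow the tissue labels. Symbols were paired with 37607 identifiers. Coordinates and exons are those of GENCODE vM21 on GRCm38, a later release than the one counted on. Promoters are from RefSeq (GRCm38.p6). Figures used Python 3.11.15 and matplotlib 3.10.9.

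The members and gene lists were chosen with earlier results of these data known, so no test was made over a list, no p-value was adjusted over one, and lists are described by counts and medians. Every member is named; from each other cilium list up to 3 called genes with the largest change are named, and Rfx3, Mcidas and Gmnc were named after their values were seen. A few items that these rules would name are not reported here. The proteomic data of the study were not used here.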

Additional observations from a re-analysis of the deposited data

How the results depend on the processing

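No member was higher in the cochlea under any alternative, and the median log2 fold change of the members stayed positive in all of them, 0.14 to 0.28 with a library left out. The number of members higher in the vestibule ranged from 0 to 4 with a library left out and was 1 with a replicate block, which used the replicate numbers as pairs. The deviations of same-numbered libraries correlated at -0.19, -0.28 and -0.49. These values cannot decide whether the numbers pair the samples, because differences between replicates went with gene length in opposite directions. For library 1 over 3 the Spearman correlation with exon length, over all genes, was -0.30 among cochlear libraries and 0.46 among vestibular ones. With the replicate block Bbs2, Bbs5 and Ift20 no longer passed (adjusted p = 0.12, 0.072 and 0.16 by edgeR) and Ift74 did (adjusted p = 0.044). The median of the BBSome was 0.28, and 1642 genes were called in the vestibule and 1019 in the cochlea. Without cochlear library 2, vestibular library 1 and vestibular library 2, where 0 members were called, 1773, 1526 and 1350 of all genes were higher in the vestibule and 1029, 1225 and 910 in the cochlea, against 2318 and 1707 with all libraries, while without cochlear library 3, where 2 members were called, there were 2681 and 1888. With library sizes alone the median of all genes shifted to 0.13, and 2727 genes were called in the vestibule and 1239 in the cochlea. On that scale the medians were 0.28 for the members, 0.38 for the IFT-B core, 0.40 for the IFT-B peripheral group, 0.27 for IFT-A, 0.32 for the BBSome, -0.14 for the chaperonin-like genes and 0.15 for the kinesins, and relative to all genes the members stood at 0.16, as with TMM (0.16). A minimum of 5 CPM left out Kif17 and gave the kinesins a median of -0.036, and limma-voom gave the BBSome 0.30. With a library left out the medians ranged from 0.16 (without vestibular library 3) to 0.31 for the IFT-B core, 0.17 (without cochlear library 1) to 0.36 for the IFT-B peripheral group, 0.13 to 0.20 for IFT-A, 0.22 to 0.33 (without cochlear library 3) for the BBSome, -0.46 to -0.010 for the chaperonin-like genes (nearest to 0 without cochlear library 1) and -0.063 to 0.10 for the kinesins. Exon lengths of GENCODE gave a median level of 2.17 log2 RPKM in the cochlea and 2.38 in the vestibule. Allowing 1 mismatch in the promoter element gave 22.6% of member windows, 5.44% of all windows and 6.29% of those of genes tested.

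Of the results of single members, 508 kept their sign and their side of the threshold, 23 kept their sign and no longer passed, 2 passed that had not (both Kif17), and 26 changed sign, all of them in members that were not called. Arl6 turned to -0.0052 with DESeq2, -0.0051 with RLE scaling, -0.010 with no filter and -0.029 with the length offset, which was chosen after seeing the data. Ift27 turned to 0.012 with upper quartile scaling and 0.018 with a minimum of 5 CPM, and with library sizes alone Ift27, Ift46 and Ift140 turned to 0.11, 0.092 and 0.097. With a library left out the log2 fold changes of 12 members crossed 0. They ranged from -0.097 to 0.15 for Ift27, -0.097 to 0.097 for Ift46, -0.036 to 0.14 for Cluap1, -0.0048 to 0.31 for Ift43, -0.056 to 0.28 for Ift122, -0.13 to 0.16 for Ift140, -0.061 to 0.26 for Ttc21b, -0.088 to 0.47 for Bbs7, -0.046 to 0.24 for Bbs9, -0.48 to 0.029 for Bbs12, -0.097 to 0.12 for Arl6 and -0.063 to 0.10 for Kif3b. Apart from the alternatives that drop a library or genes by their construction, the cause of these shifts was not tested. With 3 libraries per organ and standard errors of 0.13 to 0.33 on the log2 scale, changes well under 2-fold could go uncalled at this depth.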

Other observations

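Cep290 and Cc2d2a of the transition zone, named here after their values were seen, were uneven between libraries of the vestibule. Cep290, which tethers the microtubules to the ciliary membrane, measured 12.5, 3.81 and 1.67 CPM in vestibular libraries 1, 2 and 3 and 1.34, 1.28 and 3.07 CPM in the cochlear ones (adjusted p = 0.13 by edgeR). Cc2d2a measured 38.0, 20.1 and 12.5 CPM in the vestibule and 14.9, 8.22 and 15.4 CPM in the cochlea (adjusted p = 0.16 by edgeR). In both genes vestibular library 1 was the highest of the 6, and neither passed the test.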
